A study of Bos taurus with 4 samples.

Results

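Metallothioneins are small, cysteine-rich proteins of the cytoplasm and nucleus that bind zinc and copper, and their genes lie side by side in the genome of mammals. The 8 genes described here are the metallothioneins MT1A, MT1E, MT2A and MT3, the zinc-sensing transcription factor MTF1, the zinc exporter SLC30A1 (ZnT1) and the zinc importers SLC39A8 (ZIP8) and SLC39A14 (ZIP14). Members were taken as every non-control probe that carries 1 of these 8 symbols in the array files, which gave 23 probes of 43653. By gene, these are 8 of 25232 gene names on the array. The genes were chosen by results of these data, namely day 6 control against day 0 and each retinoid against the day 6 control. Their values in those comparisons are therefore given as a description, without a p-value. Counts past the threshold are given beside those of all probes. A test is given only for ATRA against 9cRA and for genes that are not members. The lists of other genes were also chosen with earlier results of these data known. Neighbours of the metallothionein genes were chosen after their values were seen. The p-values of both are thus not independent of that choice.

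The samples were bovine intramuscular preadipocytes, precursors of the fat cells within muscle, named BIP in the labels. Cells harvested at day 0 were compared with cells kept 6 days in adipogenic medium, which held insulin (50 ng/mL), dexamethasone (0.25 µM), octanoate (5 mM), acetic acid (10 mM) and fetal bovine serum (10%). Cells of the day 6 control had no retinoid added, and the other groups had 1 µM all-trans retinoic acid (ATRA) or 1 µM 9-cis retinoic acid (9cRA), which are stereoisomers with a different geometry at a double bond. All 3 day 6 groups thus share the medium and the 6 days, and against day 0 these cannot be told apart. The labels give 1 sample per group, read on 3 arrays each, and do not say whether the arrays came from separate cultures. Every SD, SE and p-value therefore rests on how the 3 arrays of a group differed, which can be technical only.

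As background, free zinc in the cell binds MTF1, which then activates metallothionein genes and SLC30A1 through metal response elements. Metallothionein genes are also textbook targets of glucocorticoids, and MT1 and MT2 proteins are made in fat cell precursors and fat cells as well as in liver and kidney. SLC39A14 carries zinc, iron and manganese into the cell, and SLC39A8 is its closest relative.

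Levels are given as log2 of the processed signal minus the array's 75th percentile, so that 0 is the array's 75th percentile and 1 unit is a 2-fold difference. Levels of different probes are not comparable with each other, since each probe binds with its own strength. A probe entered the tests if some group had it well above background on each of its 3 arrays. Of the 23 member probes 20 passed, against 31200 of the 43653 probes. MT1E probes 3 and 4 and MTF1 probe 2 did not pass, and probes are numbered by falling mean signal within a gene.

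What the probes read matters for closely related genes, so the probe sequences that carry the metallothionein results are shown here as the array files give them, 5′ to 3′. The MT1A probe is shown whole because the files list 4 RefSeq transcripts for it, those of MT1A, MT2A and both MT1E genes. The last 30 bases of the 2 brightest MT1E probes are shown because they hold the longest run the pair has in common, 13 bases, written in capitals.
MT1A probe: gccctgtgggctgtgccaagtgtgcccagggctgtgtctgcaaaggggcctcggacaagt
MT1E probe 1, last 30 bases: tcctttttctatGAAATATGTGAATtgcaa
MT1E probe 2, last 30 bases: cattccctttcttagGAAATATGTGAATgg

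The signal of the MT1A probe can therefore not be assigned to 1 gene. The GC content of that probe was 65.0%, against 35.0% for either MT1E probe. MT1E probes 1 and 2 list 1 transcript each (NM_001078134 and NM_001114857), and the current gene table names these as LOC768319 and LOC613358, so they read 2 separate genes under the older symbol MT1E. MT2A probes 1 and 2 list only the MT2A transcript and overlap each other by 53 of their 60 bases, so they are not independent readings. MT3 probes 1 and 2 share 42 bases. No other pair of metallothionein probes shared a run of more than 8 bases.

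MT1A, MT2A and MT1E had the widest differences of the set, in the order day 0, day 6 control, retinoid. The MT1A probe (chr18:24106877-24106936 on UMD_3.1) read -1.69, -1.67 and -1.91 at day 0, then 2.74, 2.53 and 2.36 in the day 6 control. It read 7.31, 7.27 and 7.36 with ATRA and 7.32, 7.42 and 7.34 with 9cRA. Every retinoid array lay above every control array, and every control array above every day 0 array, while ATRA and 9cRA arrays overlapped. The day 6 control exceeded day 0 by 4.30 ± 0.10 (SE), which is 19.7-fold, and ATRA and 9cRA exceeded the day 6 control by 4.77 ± 0.10 (27.2-fold) and 4.81 ± 0.10 (28.1-fold). From day 0 to the retinoid groups the distance was 536.2-fold for ATRA and 554.0-fold for 9cRA. In linear signal the 3 ATRA arrays gave 186189, 182622 and 180050, without a saturated pixel.

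MT2A, which encodes the second ubiquitous metallothionein isoform, had the same order of levels. Its probe 1 (chr18:24125461-24125520) read -1.72, -1.50 and -1.84 at day 0, and 2.74, 2.81 and 2.63 in the day 6 control. ATRA arrays read 6.96, 6.95 and 7.07, and 9cRA arrays 7.02, 7.05 and 7.00. The retinoid arrays lay above every control array, and those above every day 0 array. The differences were 4.41 ± 0.09 for day 6 control over day 0 (21.3-fold), 4.27 ± 0.09 for ATRA over day 6 control (19.3-fold) and 4.30 ± 0.09 for 9cRA (19.7-fold). Probe 2 (chr18:24125468-24125527), 7 bases along the same transcript, gave 4.42, 4.22 and 4.18. Probe 3, designed on an expressed sequence tag that the files place on no chromosome, read between -5.48 and -4.10 over all 12 arrays. Its differences were -0.39 ± 0.24, 0.64 ± 0.24 and 0.18 ± 0.24 for the same comparisons, and 0.96 for ATRA without ATRA array 2. The probes filed under MT2A thus did not behave alike.

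The MT1E genes, copies of the same family, differed from MT1A and MT2A in how the distance was divided. MT1E probe 1 (chr18:24112367-24112426) read -3.95, -4.19 and -4.51 at day 0 and -3.05, -3.05 and -3.31 in the day 6 control. With ATRA it read 1.43, 1.44 and 1.52, and with 9cRA 1.41, 1.49 and 1.49. The groups did not overlap except the 2 retinoid groups. Day 6 control exceeded day 0 by 1.08 ± 0.12 (2.11-fold), against 4.30 at the MT1A probe and 4.41 at MT2A probe 1, while ATRA and 9cRA each exceeded the day 6 control by 4.60 ± 0.12 (24.3-fold). With normexp background correction these differences were 0.59, 4.01 and 4.03. That correction also adds 50 to each signal, which narrows differences at dim probes. Whether the share of the rise that came before retinoid differs between these genes was not tested.

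MT1E probe 2 (chr18:24117461-24117520) was well above background on 0 of 3 day 0 arrays, 1 of 3 day 6 control arrays and all 6 retinoid arrays. It read -8.35, -8.39 and -8.30 at day 0 and -5.72, -6.01 and -6.50 in the day 6 control. ATRA arrays read -0.40, -0.41 and -0.40, and 9cRA arrays -0.29, -0.08 and -0.32. The day 0 level is only a bound. Set against the lowest signal that counted as well above background on each day 0 array, ATRA was at least 51.9-fold higher and 9cRA at least 58.3-fold. The day 6 control mean lay 1.02-fold above that signal. With 1 of 3 control arrays well above background this gives no lower bound. ATRA exceeded the day 6 control by 5.67 ± 0.16 (51-fold) and 9cRA did so by 5.84 ± 0.16 (57.4-fold), with 1 of 3 control arrays well above background. With normexp background correction these differences were 3.64 and 3.80, and that of day 6 control over day 0 was 0.46. The 50 added by that correction exceeds the linear signals of this probe at day 0 and in the control (3.47 to 23.4). It thus narrows these differences by construction, and the bounds above were taken without it. MT1E probe 3 (chr18:24113930-24113989) and probe 4, which has no position in the files, were designed on expressed sequence tags and were well above background on no array.

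**Figure D1:**
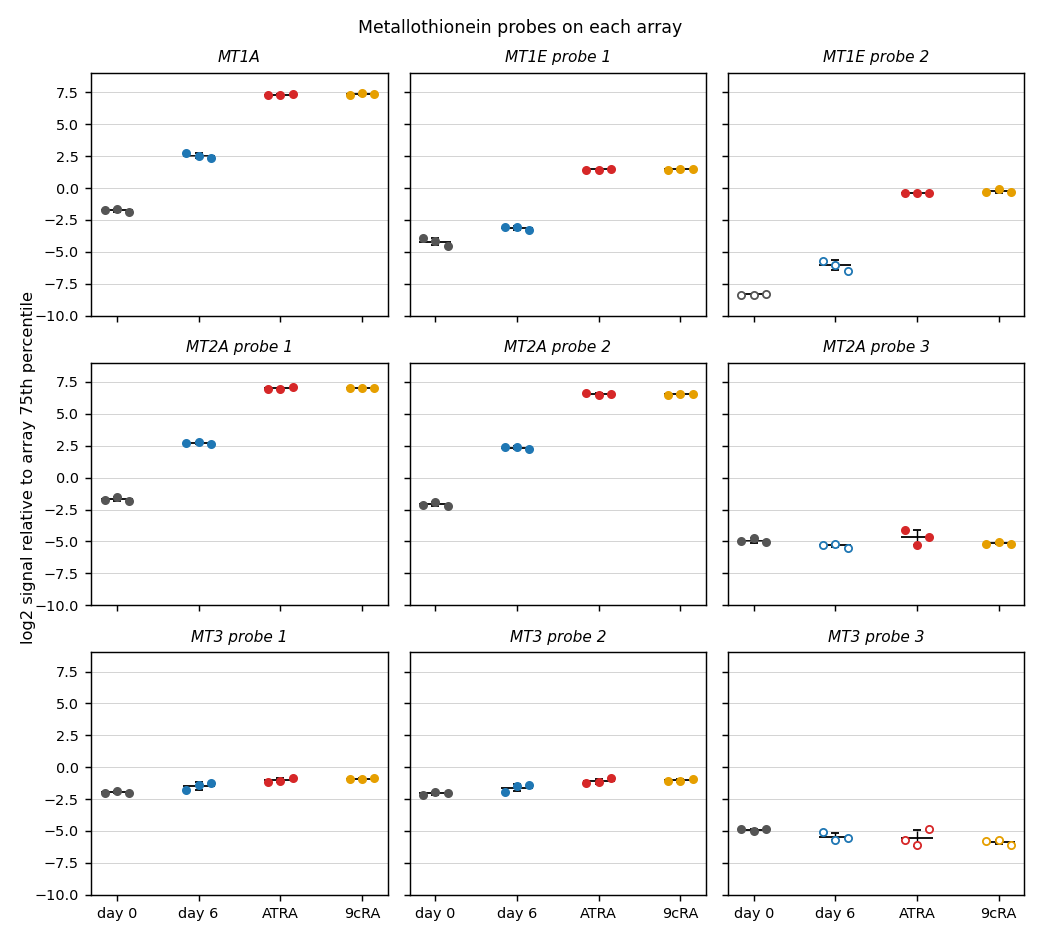
The 9 tested metallothionein probes on each array, as log2 signal relative to the array's 75th percentile (vertical axis), by group (day 6 is the day 6 control). Points are arrays, open where fewer than 3 arrays of the group were well above background, bars are group means and whiskers SD. MT1A climbs from -1.75 to 2.54 to 7.31 and 7.36, MT1E probe 1 makes most of its climb with retinoid, and the MT3 probes span about 1 unit.

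MT3, known as the metallothionein of neurons, moved far less. Probe 1 (no position in the files) read -2.02, -1.86 and -2.02 at day 0, -1.80, -1.38 and -1.26 in the day 6 control, -1.14, -1.07 and -0.81 with ATRA and -0.93, -0.94 and -0.81 with 9cRA. The steps were 0.48 ± 0.13 for day 6 control over day 0, 0.48 ± 0.13 for ATRA over control and 0.59 ± 0.13 for 9cRA over control. Probe 2 (chr18:24134101-24134160) gave 0.42, 0.51 and 0.58. These steps moved with the slide. Day 6 control array 1, on the slide of the day 0 arrays, was lower than control arrays 2 and 3, on the slide of ATRA arrays 1 and 2, and within slides probe 1 differed by 0.16 for day 6 control over day 0 and 0.22 for ATRA over control. With slide as a block the steps of probe 1 were 0.16, 0.22 and 0.14 and those of probe 2 were 0.11, 0.25 and 0.09. Probe 3 (chr18:24133322-24133381), from an expressed sequence tag, read -4.92 ± 0.06 at day 0 and -5.87 ± 0.18 with 9cRA (SD, n = 3), where it was well above background on 0 arrays.

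Within the slides that held 2 groups, the steps of MT1A, MT1E and MT2A had the sizes given above. On slide 1, day 6 control array 1 exceeded the 3 day 0 arrays by 4.49 at MT1A, 1.17 at MT1E probe 1 and 4.43 at MT2A probe 1. On slide 2, ATRA arrays 1 and 2 exceeded control arrays 2 and 3 by 4.84, 4.62 and 4.24. 9cRA and the day 6 control shared no slide, so no value within a slide exists for that comparison.

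SLC39A14, the importer, also had levels in the order day 0, day 6 control, retinoid. Its 5 probes lie on chromosome 8 along a single RefSeq transcript (NM_001098036). Probe 1 (chr8:70236747-70236806) read 0.24, 0.16 and 0.23 at day 0, 1.82, 1.78 and 1.95 in the day 6 control, 3.48, 3.49 and 3.28 with ATRA and 3.33, 3.29 and 3.47 with 9cRA. Arrays of day 0, day 6 control and the retinoid groups did not overlap. The day 6 control exceeded day 0 by 1.64 ± 0.08 (3.12-fold), and ATRA and 9cRA exceeded the control by 1.57 ± 0.08 (2.97-fold) and 1.52 ± 0.08 (2.87-fold). The day 6 step and the retinoid step were thus of like size on the log2 scale.

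The other SLC39A14 probes had the same order of levels. Probe 2 (chr8:70237423-70237482) gave 1.90 ± 0.10, 1.83 ± 0.10 and 1.91 ± 0.10 for day 6 control over day 0, ATRA over control and 9cRA over control. Probe 3 (chr8:70236326-70236385) gave 1.40, 1.46 and 1.42, each ± 0.06. Probe 5, whose 60 bases fall on both ends of a 2825-base stretch (chr8:70231724-70234548) and so cross a junction of the spliced transcript, was not well above background at day 0 and at least 2.99-fold higher in the day 6 control. ATRA and 9cRA exceeded the control there by 1.90 ± 0.12 and 2.07 ± 0.12, and by 1.22 and 1.34 with normexp background correction, where the day 6 difference was 0.51. Probe 4 (chr8:70234808-70234867) had the widest spread, with 0.50 ± 0.24 for day 6 control over day 0 and 1.36 ± 0.24 and 1.07 ± 0.24 for the retinoids. In the fit with slide as a block its 9cRA difference was 0.86 ± 0.48.

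SLC39A8, the near relative of SLC39A14, stayed close to its day 0 level. Probe 1 (chr6:23898808-23898867) averaged -4.61 ± 0.24, -4.16 ± 0.32, -4.12 ± 0.61 and -4.46 ± 0.22 (SD, n = 3) at day 0, in the day 6 control, with ATRA and with 9cRA, and arrays of every pair of groups overlapped. Its difference with slide as a block was 0.82 ± 0.21 for day 6 control over day 0 and -1.15 ± 0.27 for 9cRA against control. Probe 2 (chr6:23899851-23899907) averaged -5.25 ± 0.16, -4.89 ± 0.23, -4.75 ± 0.09 and -4.77 ± 0.04. Its day 6 difference was 0.36 ± 0.11, and 0.10 with slide as a block. No SLC39A8 mean differed by as much as 2-fold between groups without the block.

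SLC30A1 exports zinc from the cytosol and is itself a known MTF1 target. Probe 1 (chr16:73767973-73768032) read -1.25, -1.37 and -1.23 at day 0 and -1.15, -0.95 and -1.10 in the day 6 control. It read -1.46, -1.32 and -1.22 with ATRA and -1.28, -1.33 and -1.44 with 9cRA. The retinoid arrays lay below every control array, by 0.27 ± 0.08 for ATRA and 0.28 ± 0.08 for 9cRA, and the range of the retinoid arrays took in the day 0 arrays. Probe 2 (chr16:73768237-73768296) gave -0.51 ± 0.12 and -0.34 ± 0.12 against the control. Probe 3 (chr16:73769123-73769182) gave -0.14 ± 0.14 and -0.23 ± 0.14, and a day 6 difference of 0.88 ± 0.14, beside 0.22 ± 0.08 and 0.09 ± 0.12 at probes 1 and 2. Probe 3 gave, with slide as a block, 0.51, -0.41 and -0.65 in the order day 6 control, ATRA, 9cRA. Without day 6 control array 1, its retinoid differences were -0.33 and -0.41. The retinoid differences of SLC30A1 were thus negative at all 3 probes, while those of the metallothioneins MT1A, MT1E (probes 1 and 2) and MT2A (probes 1 and 2) were positive.

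MTF1, the zinc sensor, read 0.30, 0.31 and 0.29 at day 0 at its probe 1 (chr3:108691274-108691333), then 0.48, 0.61 and 0.64 in the day 6 control. ATRA arrays read 0.62, 0.58 and 0.78 and 9cRA arrays 0.79, 0.82 and 0.76. Day 0 arrays lay below all others, by 0.28 ± 0.06 against the day 6 control. ATRA differed from the control by 0.08 ± 0.06 and 9cRA by 0.21 ± 0.06, and with slide as a block both differences were -0.02. Probe 2 (chr3:108688545-108688604) was well above background on 1 of 12 arrays.

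**Figure D2:**
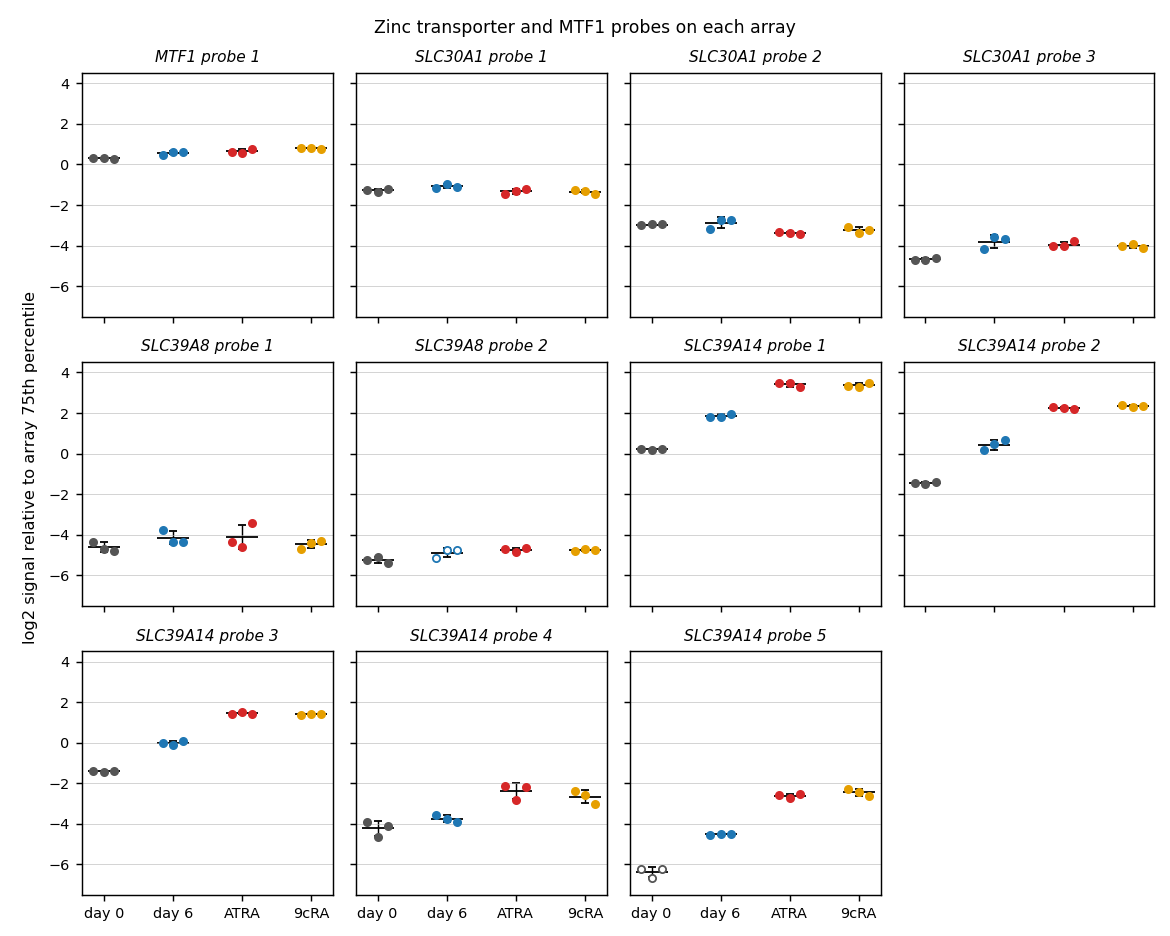
The 11 tested probes of MTF1, SLC30A1, SLC39A8 and SLC39A14 on each array, as log2 signal relative to the array's 75th percentile, by group (day 6 is the day 6 control). Points are arrays, open where fewer than 3 arrays of the group were well above background, bars are group means and whiskers SD. SLC39A14 probe 1 climbs from 0.21 to 1.85 to 3.42 and 3.37, while the group means of MTF1 probe 1 lie between 0.30 and 0.79.

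Over the member probes, 15 of 20 were past an adjusted p of 0.05 for day 6 control against day 0, all higher and 0 lower, where 61.7% of all 31200 probes passed in either direction, 28.6% as higher and 33.2% as lower. Against the day 6 control, 12 were higher and 2 lower with ATRA (all probes, 43.5%, with 21.9% higher and 21.6% lower). With 9cRA 13 were higher and 2 lower (all probes, 43.5%, with 22.7% higher and 20.8% lower). The 2 lower probes were SLC30A1 probes 1 and 2 for either retinoid. The 9cRA call of probe 2 was lost in 9 of the 12 fits that left out 1 array (-0.49 to -0.26). Of the day 6 calls, that of SLC30A1 probe 1 was lost in 7 of these 12 (0.16 to 0.26). Both were also lost with slide as a fixed block. Past the threshold and at least 2-fold were 9 probes for day 6 control against day 0 (all probes, 14%), 10 for ATRA (7.6%) and 10 for 9cRA (7.62%). Arrays did not overlap between the groups at 17 of the 20 probes for day 6 control against day 0 (all probes, 67%), at 14 for ATRA against control (52.3%) and at 15 for 9cRA (51.7%). The choice of the members used these comparisons, and nothing is read from the counts.

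ATRA and 9cRA are stereoisomers, tested here at the same dose and time, and none of the 20 member probes differed between them at an adjusted p under 0.05 (limma, two-sided, Benjamini-Hochberg over 31200 probes). Among all probes 47, or 0.151%, did, 0.0994% higher with ATRA and 0.0513% lower. At an unadjusted p under 0.05 no member probe differed either. The difference ATRA minus 9cRA was -0.05 ± 0.10 at MT1A (95% confidence interval -0.26 to 0.17, limma adjusted p = 0.93), 0.00 ± 0.12 at MT1E probe 1 (-0.27 to 0.27, limma adjusted p = 1) and -0.03 ± 0.09 at MT2A probe 1 (-0.22 to 0.16, limma adjusted p = 0.94). At SLC39A14 probe 1 it was 0.05 ± 0.08 (-0.12 to 0.22, limma adjusted p = 0.9). These intervals hold differences of up to 0.27 in either direction, small beside the steps of 1.52 to 4.81 that either isomer showed against the control. The intervals were wider at dim probes, reaching -0.07 to 0.99 at MT2A probe 3, -0.28 to 0.96 at SLC39A8 probe 1 and -0.26 to 0.92 at MT3 probe 3. MT1E probe 2 was the 1 member whose ATRA and 9cRA arrays did not overlap (16.5% of all probes), with -0.17 ± 0.16 (-0.52 to 0.18, limma adjusted p = 0.79). On slide 3, which held ATRA array 3 and all 9cRA arrays, the differences were 0.00 at MT1A, 0.05 at MT1E probe 1 and 0.04 at MT2A probe 1. The widest there among tested member probes were 1.03 at MT3 probe 3 and 1.03 at SLC39A8 probe 1, both dim. These values within the slide rest on 1 ATRA array.

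**Figure D3:**
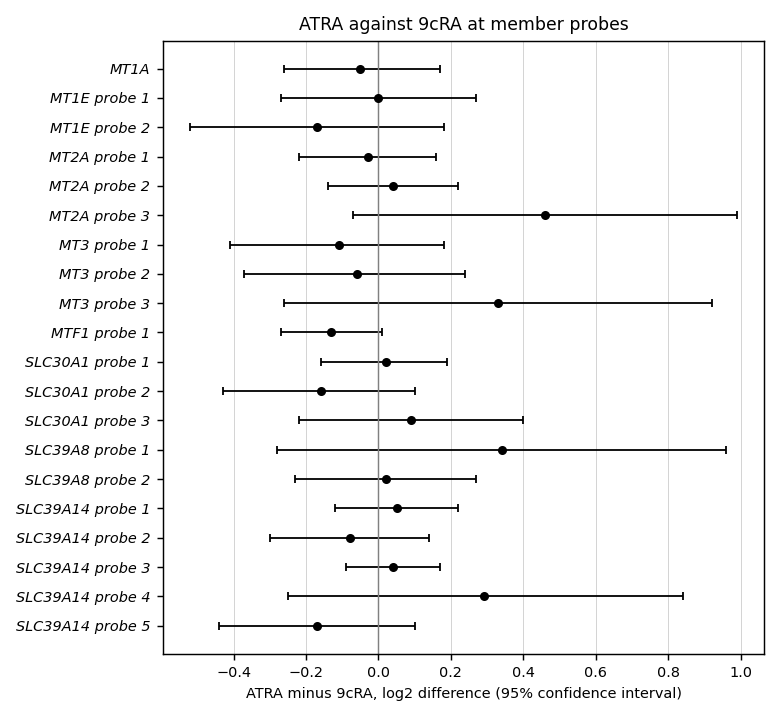
ATRA minus 9cRA at the 20 tested member probes, as a log2 difference (horizontal axis) with its 95% confidence interval from the fit over all probes (3 arrays against 3). Every interval includes 0, and the metallothionein probes MT1A, MT1E probe 1 and MT2A probe 1 have intervals no wider than -0.27 to 0.27.

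The metallothionein probes with a position lie within 27284 bases of chromosome 18 (24106877 to 24134160). In the window reaching 150 kb to either side, chosen after the values were seen, 12 further probes belong to named genes and 7 of them were tested. BBS2, a cilium assembly gene, differed by 0.38 ± 0.21 and 0.28 ± 0.05 between ATRA and the day 6 control at its 2 probes, and the second passed the test (limma adjusted p = 0.0016). OGFOD1, a ribosomal protein hydroxylase, differed by -0.05 ± 0.06. NUDT21, a factor of RNA 3′ end processing, differed by 0.19 ± 0.07 and 0.16 ± 0.07, short of the threshold. With 9cRA the second BBS2 probe was higher by 0.35 ± 0.05 (limma adjusted p = 0.00035). The NUDT21 probes were higher by 0.32 ± 0.07 and 0.21 ± 0.07 with 9cRA (limma adjusted p = 0.0051 and 0.04). SLC6A2, the noradrenaline transporter, ran the other way from the metallothioneins with retinoid. Its brighter probe rose by 2.07 from day 0 to the day 6 control (limma adjusted p = 3.1e-09) and fell by 1.96 with ATRA (limma adjusted p = 1.1e-08). MT4, the metallothionein known from squamous epithelium, was well above background on no array at either of its 2 probes, and the 3 CES1 probes on 1 array in all. Among the tested probes of this window, differences of over 4 between ATRA and the day 6 control were found at MT1A, MT1E, MT2A and 1 probe of the unnamed transcript TC439905, which lies between MT1A and MT1E.

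**Figure D4:**
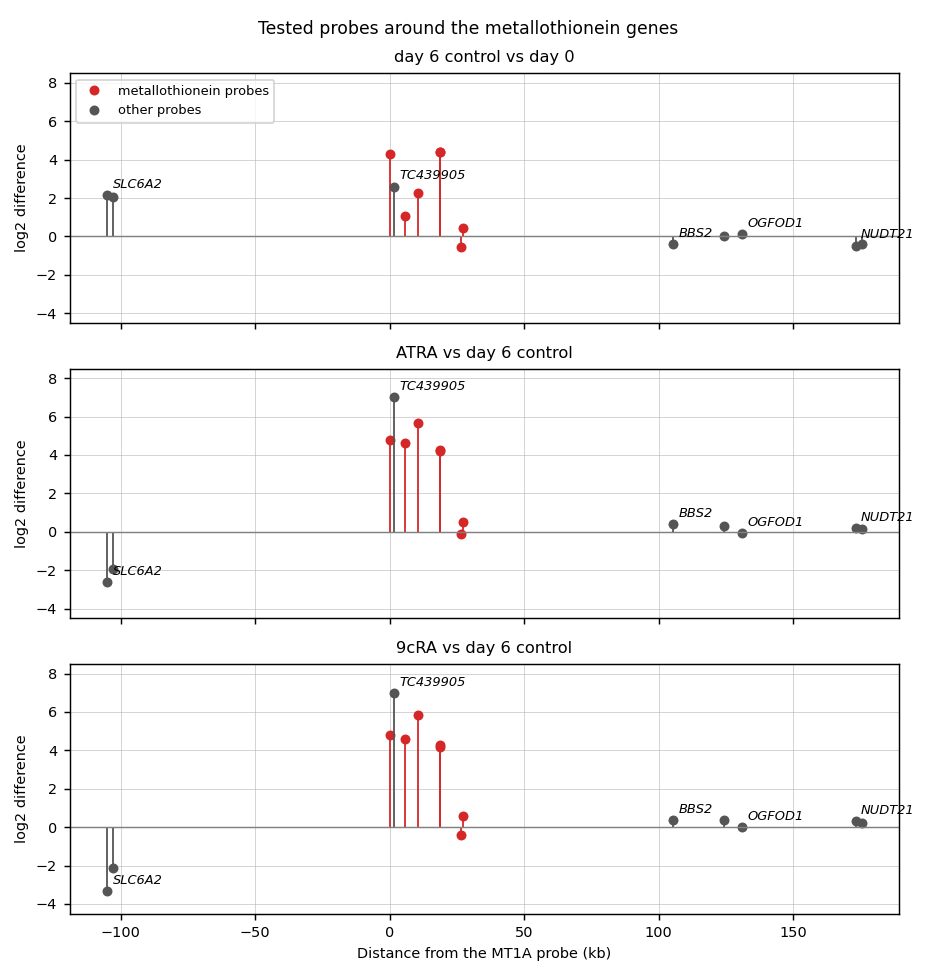
Log2 differences (vertical axis) at the tested probes around the metallothionein genes against the distance from the MT1A probe in kb (horizontal axis), for day 6 control against day 0, ATRA against day 6 control and 9cRA against day 6 control. Red points are metallothionein probes and grey points other probes, with the gene's symbol at its probe farthest from 0. Differences above 4 with retinoid lie between MT1A and MT2A, and SLC6A2 is negative with both retinoids.

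A list of 23 other zinc genes, transporters and the zinc receptor GPR39, had 16 that could be tested through their brightest probe. From day 0 to the day 6 control 4 rose and 5 fell, where 61.7% of all probes were called in either direction, 28.6% as higher and 33.2% as lower. Their median difference was 0.06, against -0.03 over all probes. SLC39A11, an importer, rose by 0.43 (limma adjusted p = 0.00018), SLC39A6 by 0.32 (limma adjusted p = 0.0047) and SLC39A9 by 0.23 (limma adjusted p = 0.016). SLC39A3 fell by 0.44 (limma adjusted p = 0.0016), and SLC30A4, which loads zinc into vesicles, and SLC39A10 each fell by 0.42 (limma adjusted p = 6.6e-05 and 1.1e-05). The rise of SLC39A9 missed the threshold without day 0 array 2 (0.19), with slide as a block (0.23) and with quantile normalization or median scaling (0.16 in both).

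With ATRA 5 of the 16 rose and 3 fell (median 0.04, all probes 0.04). With 9cRA 3 rose and 4 fell (median 0.01, all probes 0.05), where 43.5% of all probes were called with either retinoid. The rises with ATRA and 9cRA include SLC30A3 (1.07 and 1.32) and SLC39A2 (1.12 and 0.96). Both were dim, not well above background on all arrays of the groups compared. SLC39A9 rose with either retinoid, by 0.20 (limma adjusted p = 0.042) and 0.31 (limma adjusted p = 0.0045). SLC39A5 and SLC39A1 rose with ATRA by 0.73 (limma adjusted p = 0.0068) and 0.38 (limma adjusted p = 0.0081). With 9cRA they differed by 0.22 and 0.16, which missed the threshold, and ATRA against 9cRA was not past it for either (limma adjusted p = 0.36 and 0.47). GPR39, a receptor that senses extracellular zinc, fell by 0.62 and 0.64 (limma adjusted p = 0.00061 and 0.00048), and SLC30A4 by 0.60 and 0.32 (limma adjusted p = 9e-06 and 0.00085). SLC39A13, which moves zinc out of the secretory pathway, fell by 0.39 and 0.33 (limma adjusted p = 0.00047 and 0.0016). None of the 16 differed between ATRA and 9cRA (limma adjusted p under 0.05 in 0, unadjusted p in 4). The ATRA rise of SLC39A9 missed the threshold in 7 of the 12 fits that left out 1 array (0.16 to 0.21) and with quantile normalization (0.18) or median scaling (0.14). With slide as a block 3 of the 16 differed between 9cRA and the control, SLC30A4 differed there by -0.25 and SLC39A5 with ATRA by 0.66, both short of the threshold, and with normexp background GPR39 differed by only -0.09 with ATRA and -0.16 with 9cRA.

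Of the copper genes 8 of 10 were tested, and 7 fell and 0 rose from day 0 to the day 6 control (median -0.41), against 33.2% of all probes called as lower and 28.6% as higher. SLC31A2, a copper transporter of endosomes, fell most, by 1.84 ± 0.07 (limma adjusted p = 8.3e-09). The copper-binding regulator COMMD1 fell by 0.53 ± 0.13 (limma adjusted p = 0.0045). The chaperone ATOX1 fell by 0.44 ± 0.11 (limma adjusted p = 0.0059). With ATRA 1 rose and 1 fell, and with 9cRA 2 rose and 1 fell (all probes called, 43.5%). These counts include ATP7B, with -0.55 over the 6 days, 0.36 with ATRA and 0.57 with 9cRA. It was dim, not well above background on all arrays of the groups compared. The gene that fell was SLC31A2 in both, by 0.96 ± 0.07 and 0.89 ± 0.07 (limma adjusted p = 2.1e-06 and 4.2e-06). SOD1, the copper and zinc superoxide dismutase, rose with 9cRA by 0.26 ± 0.09 (limma adjusted p = 0.048). That call was lost in 10 of the 12 fits that left out 1 array (0.20 to 0.30). With ATRA SOD1 differed by 0.18, short of the threshold, and ATRA against 9cRA was not past it (limma adjusted p = 0.85). With slide as a block COMMD1 and ATOX1 differed by -0.26 and -0.22 between day 6 control and day 0, short of the threshold.

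Of the genes known to respond to metals, heat or electrophiles, 9 of 10 were tested. From day 0 to the day 6 control 4 rose and 3 fell (median 0.19; all probes called, 61.7%), with the heme oxygenase HMOX1 lower by 1.25 ± 0.15 (limma adjusted p = 4.4e-05) and the sulfiredoxin SRXN1 higher by 0.57 ± 0.05 (limma adjusted p = 4.4e-06). Over the same 6 days the quinone reductase NQO1 fell by 0.50 (limma adjusted p = 0.00076) and OSGIN1 by 0.30 (limma adjusted p = 0.0032; -0.22 and short of the threshold with slide as a block). SLC48A1 rose by 0.30 (limma adjusted p = 0.0008) and GCLM by 0.19 (limma adjusted p = 0.031), the latter short of the threshold without day 0 array 1 or 2 or day 6 control array 1 or 3 (0.14 to 0.18). With ATRA 2 rose and 5 fell (median -0.20) and with 9cRA 2 rose and 6 fell (median -0.22), where 21.9% and 22.7% of all probes were called as higher and 21.6% and 20.8% as lower. NQO1 fell by 0.67 and 0.63 (limma adjusted p = 0.00017 and 0.00029) and the heat shock gene HSPA1A by 0.66 and 0.46 (limma adjusted p = 1.9e-05 and 0.00029). OSGIN1 rose by 0.69 and 0.64 (limma adjusted p = 1.6e-05 and 3e-05) and the heme transporter SLC48A1 by 0.19 and 0.21 (limma adjusted p = 0.019 and 0.011). The cystine transporter SLC7A11 fell with 9cRA by 0.52 (limma adjusted p = 0.028), and missed the threshold with slide as a block (-0.65) and without day 6 control array 2 or 3 or 9cRA array 2 or 3 (-0.52 to -0.38). SRXN1 fell with ATRA by 0.30 and with 9cRA by 0.23 (limma adjusted p = 0.00078 and 0.0047). SLC7A11 differed by -0.14 with ATRA, short of the threshold, and ATRA against 9cRA was not past it (limma adjusted p = 0.48). HMOX1 differed by -0.11 ± 0.15 and -0.18 ± 0.15 with the retinoids, not past the threshold. HSPA1A and SLC48A1, with slide as a block, differed by -0.30 and 0.24 with 9cRA, short of the threshold. The rise of SLC48A1 missed it without day 6 control array 2 (0.16) or ATRA array 3 (0.19) for ATRA and without 9cRA array 2 (0.17) for 9cRA. The comparisons of ATRA and 9cRA share the day 6 control arrays.

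Over the copper and metal-inducible lists together, 11 genes were called for 9cRA against the day 6 control, 5 with slide as a block and 6 without 9cRA array 2.

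**Figure D5:**
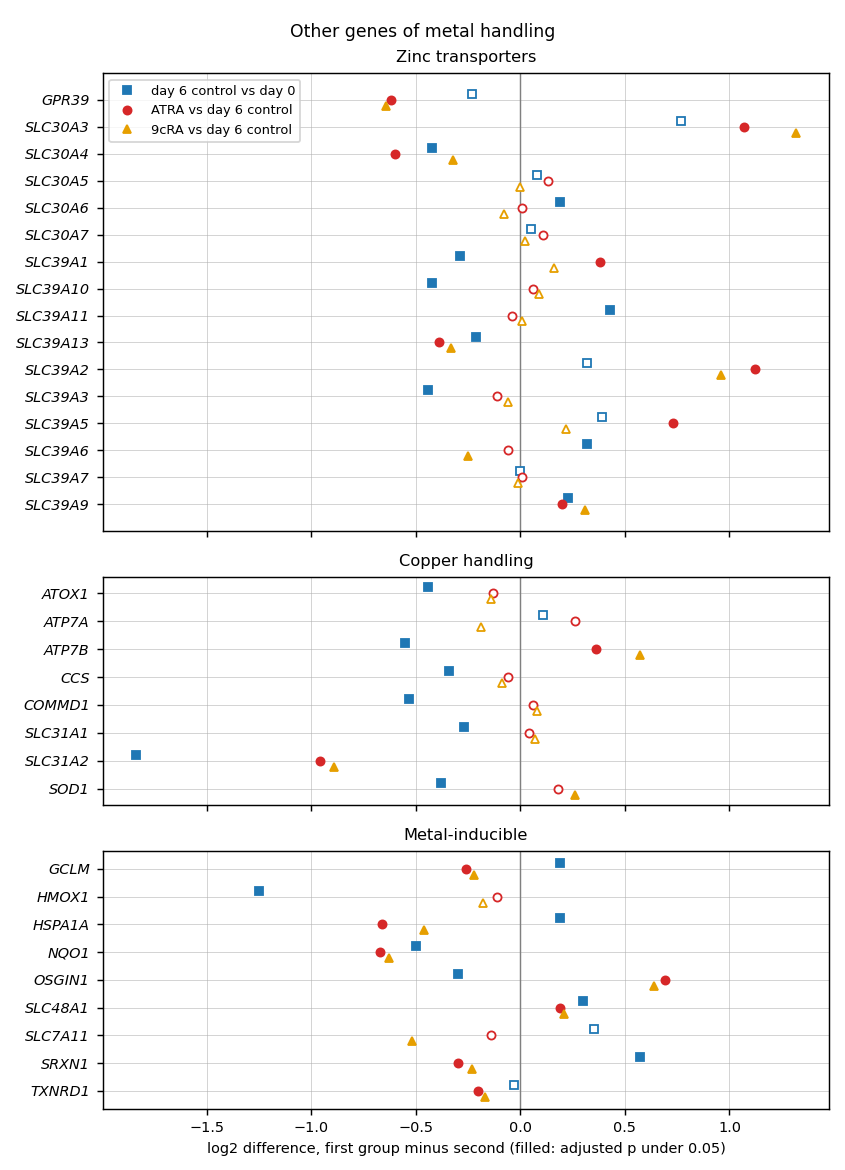
Log2 differences (horizontal axis) of the 16 zinc transporter, 8 copper handling and 9 metal-inducible genes tested (GPR39, a receptor, is shown with the transporters), for day 6 control against day 0 (squares), ATRA against day 6 control (circles) and 9cRA against day 6 control (triangles). Filled symbols passed an adjusted p of 0.05. No gene reaches the steps of the MT1A probe (4.30, 4.77 and 4.81), and SLC31A2 lies at -1.84 for day 6 control against day 0.

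Genes with the pattern most like MT1A's were sought among 10549 non-member genes well above background on all 12 arrays, by the mean absolute difference of the 4 group means after centring. The nearest were ANGPTL4, an inhibitor of lipoprotein lipase (1.14), TF, the iron carrier transferrin (1.14), PLEKHB1 (1.24), MRAP, an accessory protein of melanocortin receptors (1.30), and CHI3L1 (1.34). The same 5 genes were nearest to MT2A, with 1.00 for ANGPTL4 and 1.22 for MRAP. None matched closely. ANGPTL4 had its wider step from day 0 to the day 6 control (7.13, then 1.70 with ATRA), and TF had nearly all of it with ATRA (0.41, then 6.02).

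Over the series, 64.8 to 74.0% of probes were well above background per array, and the median SD between arrays was 0.07 at day 0, 0.13 in the day 6 control, 0.08 with ATRA and 0.10 with 9cRA. Of 11 markers of fat cell precursors and stroma 10 were well above background on all arrays. The exception, CD34, averaged -8.26, -7.42, -4.84 and -4.55 at day 0, in the day 6 control, with ATRA and with 9cRA. It was well above background on the retinoid arrays only. In the same order, the summed signal of the 11, in multiples of the 75th percentile, was 361.7 to 385.7, 510.8 to 539.3, 354.3 to 395.6 and 377.5 to 386.2. Bright genes such as COL3A1, DCN and LUM led that sum. DCN, LUM and THY1 were highest in the day 6 control, as the sum was (THY1 averaged 5.02, 5.29, 3.52 and 3.58). Other members did not have that pattern. PDGFRA averaged 1.08, 3.20, 4.58 and 4.49, and ENG was also highest with retinoid. PDGFRB averaged -0.22, -2.11, -1.95 and -1.65. The adipocyte marker ADIPOQ was well above background on none, and neither were the muscle precursor marker MYF5 or the macrophage markers AIF1, ITGAM and CD163. Of the 6 endothelial markers, PECAM1 was so on none, and VWF and TEK on all arrays. VWF averaged -3.56, -3.96 and -1.61 at day 0, in the day 6 control and with ATRA. With 9cRA it was also above the control. TEK averaged -5.10, -3.47, -3.04 and -3.26 in the order day 0, day 6 control, ATRA, 9cRA. In that order KDR averaged -6.32, -5.37, -4.71 and -4.69, and CLDN5 -5.08, -4.75, -4.91 and -4.43. The monocyte marker CD14 averaged -3.51, -1.62, 0.69 and 0.71 in the order day 0, day 6 control, ATRA, 9cRA, while PTPRC averaged 0.81, 0.33, 1.19 and 1.11, CD68 -2.69, -2.57, -2.25 and -2.29 and CSF1R -4.06, -5.17, -4.32 and -4.43. The summed signal of the 7 macrophage and leukocyte markers, in multiples of the 75th percentile, was 1.92 to 2.24, 1.4 to 2.13, 4.08 to 4.28 and 3.82 to 4.23, and that of the 6 endothelial markers was 0.155 to 0.178, 0.194 to 0.272, 0.491 to 0.578 and 0.421 to 0.549. Their part in the results was not tested. The adipocyte markers summed to 4.28 to 4.41, 70.8 to 88.5, 3.44 to 3.56 and 3.71 to 4.66, a sum led by FABP4 (means 1.92, 6.27, 1.33 and 1.63). PPARG and LPL did not have that pattern (-2.33, -0.52, -0.51 and -0.46, and -4.59, -2.10, -2.14 and -1.97), and CIDEC averaged -1.87, -4.71, -5.40 and -5.12. The muscle markers summed to 74.5 to 79, 45.1 to 49.4, 20.1 to 20.4 and 21.6 to 23.3, led by DES (6.13, 5.38, 4.07 and 4.24) with ACTA1 (2.05, 1.47, -0.91 and -0.93). MYOG averaged -4.45, -4.02, -3.81 and -3.98, MYOD1 averaged 1.03, 1.20, 1.45 and 1.51 and MYH3, not well above background at day 0, -6.27, -3.42, -2.98 and -3.05.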

How the data were processed

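Total RNA (100 ng) from bovine intramuscular preadipocytes was labelled with Cy3 from a poly-dT primer, per the labels' protocols, and read on 12 single-colour arrays, 3 per group. The authors deposited spot intensity on a linear scale from Feature Extraction 10.7.3.1, background-subtracted with spatial and multiplicative detrending per the file headers and not normalized between arrays. A second table that the authors deposited holds log2 values by group, which match group means of log2 signal minus the 75th percentile, centred per probe (median difference 0.00255 to 0.00278, correlations 0.935 to 0.992, column medians -0.01 to 0.02). It served as an alternative without a test.

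Here the log2 processed signal minus the array's 75th percentile (1094 to 1359) was used. Control spots (1417 of 45220) and 191 outlier spots were left out, and spots of a probe were averaged. The number of arrays limits the precision. The 31200 probes that some group had well above background on each of its 3 arrays were fitted with limma 3.58.1 in R 4.3.3 over 12 arrays, with Benjamini-Hochberg adjustment per comparison. The same fit was also run on simulated data without a slide effect, with 200 probes changed among these 31200. The day 0 arrays shared slide 1 with day 6 control array 1, slide 2 carried day 6 control arrays 2 and 3 beside ATRA arrays 1 and 2, slide 3 carried ATRA array 3 and the 9cRA arrays, and each slide was a single scan. Bounds set the brighter group's mean against, per dim array, the higher of the lowest well-above-background signal and the probe's own. Positions are the files' (UMD_3.1), and names came from a RefSeq table (ARS-UCD2.0), which matched 26743 probes by accession. A gene outside the members is represented by its probe of highest mean. The rule for named genes takes all member probes, up to 3 called increases and 3 decreases per list and comparison among genes well above background in both groups, and the 5 genes nearest in pattern to MT1A and MT2A. The window around the metallothionein genes was added after seeing the values. The members and lists were chosen with earlier results of these data known. Alternatives were other scalings, normexp background correction with an offset of 50, other filters, slide as a block, 1 probe per gene, unmoderated variances and leaving out each array.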

Additional observations from a re-analysis of the deposited data

Results flagged for a closer look

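A probe of the unnamed transcript TC439905 (chr18:24108436-24108495 on UMD_3.1) lies between the MT1A and MT1E probes and is no member. Its coordinates run in ascending order, those of the metallothionein probes in descending order, and it shares no run of more than 9 bases with a member metallothionein probe on either strand. It was singled out after its values were seen, as a signal outside the described genes that stood above the control arrays. It read -8.32, -8.35 and -7.93 at day 0, well above background on 0 of 3 arrays, and -5.81, -5.70 and -5.30 in the day 6 control, well above on 2 of 3. It read 1.46, 1.32 and 1.42 with ATRA and 1.40, 1.47 and 1.33 with 9cRA. The difference from the day 6 control was 7.00 ± 0.14 for ATRA and 7.00 ± 0.14 for 9cRA, both higher in 3 of 3 arrays, and 5.20 and 5.21 with normexp background correction. It is given as a description, since the probe was chosen for it. ATRA and 9cRA differed by 0.00 ± 0.14. No member probe was past the threshold between ATRA and 9cRA, and none moved in opposite directions against the control in every array.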

How the results depend on the processing

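Counts over the members are a description, since the members were chosen on these comparisons. The differences of MT1A, MT1E probes 1 and 2, MT2A probes 1 and 2 and SLC39A14 probes 1, 2, 3 and 5 from day 0 or the control kept their sign in all alternatives tried, and were smallest at the dim probes with normexp background (0.46 for MT1E probe 2 and 0.51 for SLC39A14 probe 5, day 6 control against day 0). Member probes called for day 6 control against day 0 were 15 of 20 (all probes, 61.7%), with 12 to 16 when 1 array was left out (all probes, 17414 to 20451). They were 8 with 1 probe per gene (all probes, 11065) and 9 when a 2-fold difference was also asked (all probes, 14%). Against the control they were 14 with ATRA and 15 with 9cRA (all probes, 43.5% for either), and 13 to 15 for either without 1 array. With 1 probe per gene 7 and 8 member probes were called (all probes, 8185 and 8251). In those fits MT1E probes 1 and 2 enter as separate genes. No member probe was called for ATRA against 9cRA in any fit. With 9cRA, genes called of the zinc list were 7, and 3 with slide as a fixed block (6 to 8 without 1 array). Copper and metal-inducible genes called with 9cRA were 11, with 5 with slide as a fixed and 7 as a random block (6 to 11 without 1 array), and for day 6 control against day 0 they were 14, with 9 with the fixed block.

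Over all probes, 1 probe per gene left 11065 calls of 19257 for day 6 control against day 0, 8185 of 13561 for ATRA and 8251 of 13583 for 9cRA, and a 2-fold difference left 4359, 2372 and 2378. Slide as a fixed block left 6494 for 9cRA. The 47 probes called for ATRA against 9cRA became 81 with quantile normalization, 68 with normexp background, 73 among probes well above background on all arrays, 32 with median scaling, 34 without variance moderation, 20 with slide as a random block, 21 with 1 probe per gene, 5 with a 2-fold difference, 0 without a filter on dim probes and 5 to 57 without 1 array.

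Signs turned at small differences, with slide as a fixed block for SLC30A1 probe 2 over culture (-0.21, and -0.01 with slide as a random block), MTF1 probe 1 with ATRA (-0.02) and 9cRA (-0.02), SLC39A8 probe 1 with ATRA (-0.12, also -0.04 with quantile normalization and -0.02 with median scaling) and SLC39A8 probe 2 with ATRA (-0.02) and 9cRA (-0.11). For ATRA against 9cRA they turned with that block at MT2A probe 1 (0.04), MT3 probes 1 and 2 (0.08 and 0.16) and SLC39A14 probe 1 (-0.09). MT3 probe 3 turned to 0.04 with normexp background for ATRA. In the authors' values by group it was 0.34 for ATRA against control, beside -0.10 here. SLC39A8 probe 2 was -0.01 there for 9cRA against control, beside 0.13 here. Leaving out 1 array gave ranges across 0 for MT3 probe 3 (-0.45 to 0.17) and SLC39A8 probe 1 (-0.3 to 0.28) with ATRA, and for ATRA against 9cRA at MT3 probe 2 (-0.17 to 0.01), MT3 probe 3 (-0.02 to 0.6), SLC30A1 probe 1 (-0.04 to 0.08) and SLC39A8 probe 2 (-0.02 to 0.07). The cause was not tested.

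Of 45 differences of genes outside the members that the text names or the rule takes, 9 calls were lost with slide as a fixed block and 2 with slide as a random block, alternatives chosen after seeing the data. Signal over background limits MT1E probe 2 at day 0 and in the day 6 control, SLC39A14 probe 5 at day 0 and MT3 probe 3 with 9cRA, among other dim probes. No paired analysis was possible because the labels carry no replicate numbers.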
